A study of Rattus norvegicus with 3 samples.

Results

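Sgk1 and 7 other genes of steroid-controlled sodium handling were examined in cultured heart muscle cells of newborn rats: Scnn1a, Scnn1b and Scnn1g, Nedd4l, Atp1b1, Cnksr3 and Rnf207. The genes were listed by name, and each was looked for through the transcript accessions of the array's probes. Of the 8 genes, 6 had a probe, 7 probes on 25 spots in all, among 15149 genes named in this way on the array. Nedd4l and Rnf207 matched no accession and have no value here.

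The study compared 3 groups of transfected ventricular cardiomyocytes. The control cells carried an empty vector, the HSD1 cells an expression vector for 11β-HSD1, and the HSD1 plus BVT cells that same vector together with the inhibitor BVT.2733. The enzyme 11β-HSD1 turns inert cortisone or 11-dehydrocorticosterone back into the active steroid, and the stated aim was to learn how it acts on hypertrophy. For each group, RNA from pooled cells was read on 1 one-colour array, so there are 3 arrays and no replicates. The labels read here give no dose, no time, no species for the insert and no count of pooled cultures.

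Mineralocorticoid and glucocorticoid receptors raise Sgk1 transcription in sodium-transporting epithelia. The kinase SGK1 phosphorylates the ubiquitin ligase NEDD4-2, the product of Nedd4l, which otherwise removes the epithelial sodium channel ENaC from the cell surface. ENaC is built from the products of Scnn1a, Scnn1b and Scnn1g, and the sodium pump, which Atp1b1 contributes to, carries the sodium out on the other side of the cell. CNKSR3 is a scaffold that brings SGK1, NEDD4-2 and ENaC together. In heart muscle the pump sets the sodium gradient that drives calcium extrusion, and RNF207 is a ubiquitin ligase that acts on the HERG potassium channel.

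Sgk1 was the member that differed between the groups, and RefSeq places 3 transcription starts for it on rat chromosome 1. The 250 bases before each start are shown because the array cannot tell which start the Sgk1 RNA came from. They are read from the RefSeq table of build GRCr8, on the minus strand, 5′ to 3′: the upstream window is chr1:24807232-24807481, the middle one chr1:24805571-24805820 and the downstream one chr1:24804832-24805081. Capitals mark TATAAA, the core of a TATA box, on the strand shown or its complement.

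Sgk1 window upstream: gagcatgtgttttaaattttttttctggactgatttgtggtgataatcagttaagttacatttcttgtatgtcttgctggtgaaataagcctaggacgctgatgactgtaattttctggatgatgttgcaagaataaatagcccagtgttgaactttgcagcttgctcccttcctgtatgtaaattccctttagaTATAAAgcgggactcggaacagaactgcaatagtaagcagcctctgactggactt
Sgk1 window middle: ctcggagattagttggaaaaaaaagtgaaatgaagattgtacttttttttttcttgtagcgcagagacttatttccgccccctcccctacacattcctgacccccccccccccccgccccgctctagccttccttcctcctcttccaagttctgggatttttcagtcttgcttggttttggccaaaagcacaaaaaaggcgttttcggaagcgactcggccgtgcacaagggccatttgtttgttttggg
Sgk1 window downstream: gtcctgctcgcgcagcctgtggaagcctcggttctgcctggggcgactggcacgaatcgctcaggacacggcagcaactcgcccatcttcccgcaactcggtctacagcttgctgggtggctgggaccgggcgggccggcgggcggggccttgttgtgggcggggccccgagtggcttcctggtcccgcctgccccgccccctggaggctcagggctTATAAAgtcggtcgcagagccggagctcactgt

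TATAAA begins 55 bases before the start in the upstream window and 33 bases before it in the downstream window, and the middle window has none on either strand. Of all 33469 windows of this length in the table, 12.9% hold TATAAA. The sequence AGAACA, a recognition unit of the steroid receptors, searched on both strands, is in none of the 3 Sgk1 windows and in 17.5% of all windows. The full palindromic glucocorticoid response element, searched in a loose form that leaves the spacer and the base next to each end free and that can overlap AGAACA, is in none of them and in 0.373% of all windows. That says only that these letters are not in these 250 bases. Of the 8 genes, 6 had a window in the table, 9 windows in all, and AGAACA was found once among them, 178 bases before a start of Rnf207.

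Levels are given as the processed signal of the array, which is the spot's brightness after background subtraction, and as log2 of that signal over the array's own 75th percentile. That percentile was 1319 for control, 1164 for HSD1 and 1543 for HSD1 plus BVT, so raw signals of the HSD1 plus BVT array run higher in general. Signals of different probes cannot be ranked against each other. With 1 array a group no test was possible; a gene was counted as higher or lower where it differed 2-fold or more and its probe was well above background on both arrays. Control and HSD1 were read in scan 1 and HSD1 plus BVT alone in scan 2, and the effects of scan and inhibitor cannot be told apart. All 10 cardiomyocyte genes listed were well above background on every array, and so were all 8 fibroblast genes. So were all 9 renal and other epithelial markers, and 81.2% to 82.4% of all spots. Being well above background therefore does not tell the cell types apart. In bulk RNA, fewer cells of a type and less RNA per cell cannot be told apart. Hsd11b1, the rat gene of the enzyme, was 1.39-fold above control in HSD1 and 1.30-fold above it in HSD1 plus BVT, both under 2-fold.

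Sgk1, the kinase, gave a processed signal of 509 on the control array, 1101 on the HSD1 array and 1384 with HSD1 plus BVT. Both arrays of cells with the 11β-HSD1 vector, called the vector groups from here on although control carries an empty one, thus lay above control. Scaled to each array, the log2 level was -1.37 for control, -0.08 for HSD1 and -0.16 for HSD1 plus BVT, so control stood apart and the other arrays lay together. Sgk1 was 2.45-fold higher in HSD1 than in control, a log2 ratio of 1.29. In HSD1 plus BVT it was 2.32-fold higher than in control, a log2 ratio of 1.22. Between the vector groups it was 1.05-fold lower with BVT.2733, a log2 ratio of -0.08.

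The gene was read from 1 spot on each array. The only error that could be measured is technical. The SD of a ratio of single spots was combined from the spread between spots within each array, without pairing spots by position. Among the 100 probes printed 10 times that were nearest to Sgk1 in brightness, its median was 0.065 for HSD1 against control. For HSD1 plus BVT against HSD1 it was 0.062. The SDs of such ratios given below for Scnn1b, Atp1b1 and Cnksr3 were made in the same way. The 2 ratios to control are many times that SD. The difference between HSD1 plus BVT and HSD1 is near it. The spread between cultures is unknown, and the 2 comparisons with control share the control array. Sgk1 had the 71st highest of 11866 ratios for HSD1 against control, the 179th of 11713 for HSD1 plus BVT against control, and the 7378th of 11696 between the 2 vector groups.

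**Figure D1:**
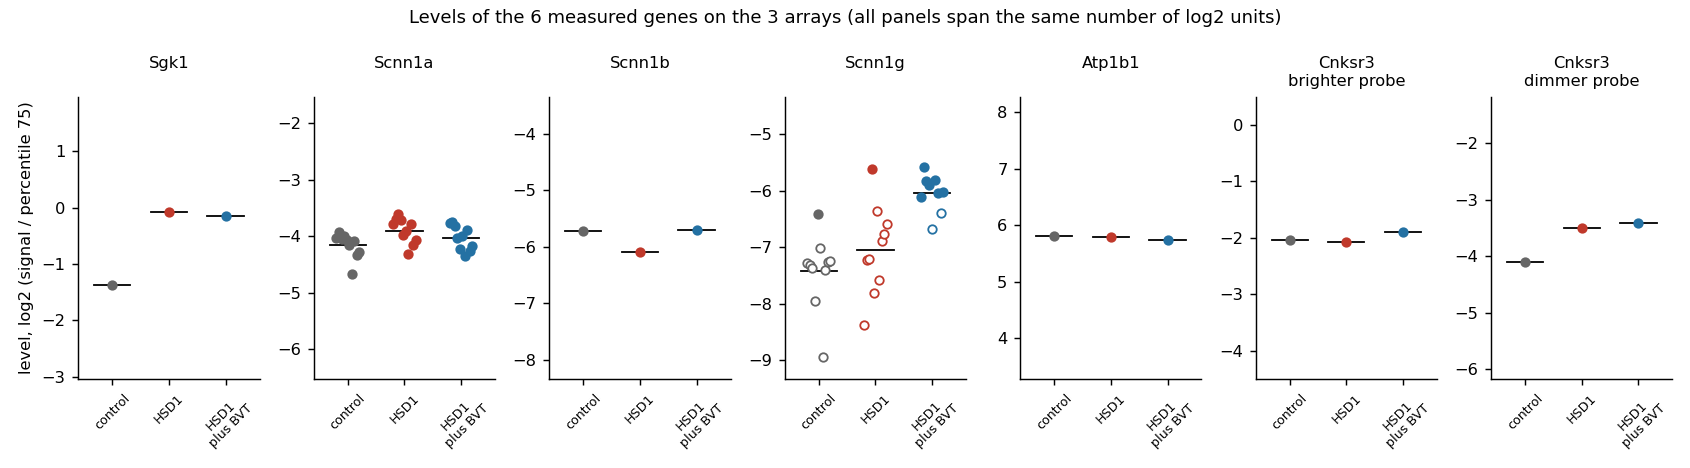
Levels of the 6 measured genes on the 3 arrays, as log2 of the processed signal over the array's 75th percentile; each point is a spot, open points are spots not well above background, the bar is the mean, and all panels span the same number of log2 units. Sgk1 moves from -1.37 in control to -0.08 in HSD1 and -0.16 in HSD1 plus BVT, Atp1b1 stays between 5.75 and 5.80, and the spots of Scnn1g are mostly open on the control and HSD1 arrays.

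Scnn1a encodes the alpha subunit of ENaC, the subunit the channel needs to reach the membrane, and aldosterone raises it in kidney. Its probe is printed 10 times, which gives more readings than the single spots of Sgk1, Scnn1b, Atp1b1 and Cnksr3. The spots had signals from 52.0 to 86.5 with a median of 77.9 in control, from 58.6 to 95.6 with a median of 81.1 in HSD1, and from 75.6 to 115 with a median of 95.3 in HSD1 plus BVT, and all were well above background. The ranges overlapped among all 3 arrays. The mean log2 level was -4.16 ± 0.22 for control, -3.90 ± 0.23 for HSD1 and -4.02 ± 0.22 for HSD1 plus BVT (SD, n = 10 spots of 1 array). Taken spot by spot at the same position, the HSD1 array was higher than control at 10 of 10 spots, by a log2 ratio of 0.26 ± 0.09. It was 1.20-fold higher, below the 2-fold threshold, and higher than 77.7% of all genes' ratios. HSD1 plus BVT was lower than HSD1 at 9 of 10 spots, by -0.13 ± 0.10, and higher than control at 8 of 10 by 0.14 ± 0.14. The small difference between HSD1 and control depended on scaling, from 0.06 with a repaired normexp background correction to 0.26. For HSD1 plus BVT against control the direction turned, from 0.14 to -0.06 in the authors' deposited table. Spots of 1 pool are not replicates of the cells.

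Scnn1b, the beta subunit of ENaC, was read from 1 dim spot, with processed signals of 24.995 for control, 17.0 for HSD1 and 29.6 for HSD1 plus BVT. Before subtraction the spot's brightness was 85.5, 86.0 and 83.0 in the same order, and that of the negative control spots was 56.0, 61.5 and 44.0. The log2 ratio was -0.37 for HSD1 against control, 0.39 for HSD1 plus BVT against HSD1 and 0.02 for HSD1 plus BVT against control. A ratio of single spots as dim as this had an SD of 0.34 for the first of these and 0.37 for the second. None of these ratios is clearly larger than that spread between spots.

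Scnn1g, the gamma subunit, was at the edge of detection. In control, 1 of its 10 spots was well above background, with signals from 2.68 to 15.4 and a median of 8.42. In HSD1 it was 1 of 10 as well, with signals from 3.49 to 23.9 and a median of 8.86. In HSD1 plus BVT, 7 of 9 spots were well above background, with signals from 15.0 to 32.3 and a median of 23.8; 1 more spot was marked as an outlier and left out. The processed signals of HSD1 plus BVT mostly lay above those of the other arrays, and the ranges overlapped. Before subtraction the spots' median brightness was 69.5 for control, 74.75 for HSD1 and 77.0 for HSD1 plus BVT. That of the negative control spots was 56.0, 61.5 and 44.0 in the same order. The arrays thus lay closer together before subtraction than after it, and the part of the background was not tested.

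As most of its spots were not well above background for control or HSD1, only a lower bound can be given, and only for the percentile scaling. With that scaling, Scnn1g in HSD1 plus BVT had a bound of 1.66-fold above control and 1.27-fold above HSD1. The measured mean log2 levels behind these bounds were -7.42 for control, -7.04 for HSD1 and -6.04 for HSD1 plus BVT. Both bounds are under 2-fold, while 39.9% of 351 genes measured in HSD1 plus BVT but not in control had a bound of 2-fold or more, and 18.5% of 368 measured there but not in HSD1. Of 2607 genes not well above background in control and in HSD1, 9.47% were so in HSD1 plus BVT, and of 2622 seen neither in control nor in HSD1 plus BVT, 9.99% were so in HSD1. For control the share was 7.41% of 2549, so each array had such gains among its dim genes. In the authors' deposited table Scnn1g had a log2 difference of -0.25 between HSD1 plus BVT and HSD1, the opposite direction. For HSD1 plus BVT against control the log2 difference went from 0.21 to 1.38 over the alternatives. Neither bound therefore holds under every scaling. The group of ENaC subunits therefore holds 1 measured member near its control level, 1 at the limit of its spot noise and 1 with bounds alone.

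Atp1b1, the beta subunit of the sodium pump, helps the pump reach the membrane. Its single spot gave signals of 73578 for control, 64359 for HSD1 and 82761 for HSD1 plus BVT, and none was saturated. After scaling, the log2 levels were 5.80, 5.79 and 5.75, so the arrays lay together. The log2 ratios were -0.01 for HSD1 against control, -0.04 for HSD1 plus BVT against HSD1 and -0.06 for HSD1 plus BVT against control. The first 2 are within the SD of 0.057 and 0.054 of a ratio of single spots, and the last is close to its SD of 0.049. Over the alternatives the ratios went from -0.01 to -0.15, from -0.04 to -0.15 and from -0.06 to -0.29, in the same order. At the far ends of these ranges each ratio was larger than its SD.

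Cnksr3, the scaffold gene and itself a target of aldosterone in kidney, has 2 probes that match the same transcript, and they differ. The brighter probe gave 322 for control, 277 for HSD1 and 413 for HSD1 plus BVT, or log2 levels of -2.03, -2.07 and -1.90. The dimmer probe gave 77.0, 103 and 145, or log2 levels of -4.10, -3.50 and -3.41. By the brighter probe the groups lay close together, while by the dimmer probe both vector groups lay above control.

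The log2 ratio of HSD1 to control was -0.04 by the brighter probe and 0.60 by the dimmer one, beside SDs of 0.073 and 0.11 for a ratio of single spots. For HSD1 plus BVT against control the ratios were 0.13 and 0.68. Between the 2 vector groups they were 0.17 and 0.09. The gap between the probes for HSD1 against control is larger than the spread between spots for either. The dimmer probe kept a ratio above 0 in 6 other scalings, from 0.23 to 0.59. Neither probe reached 2-fold, and why they differ was not tested.

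**Figure D2:**
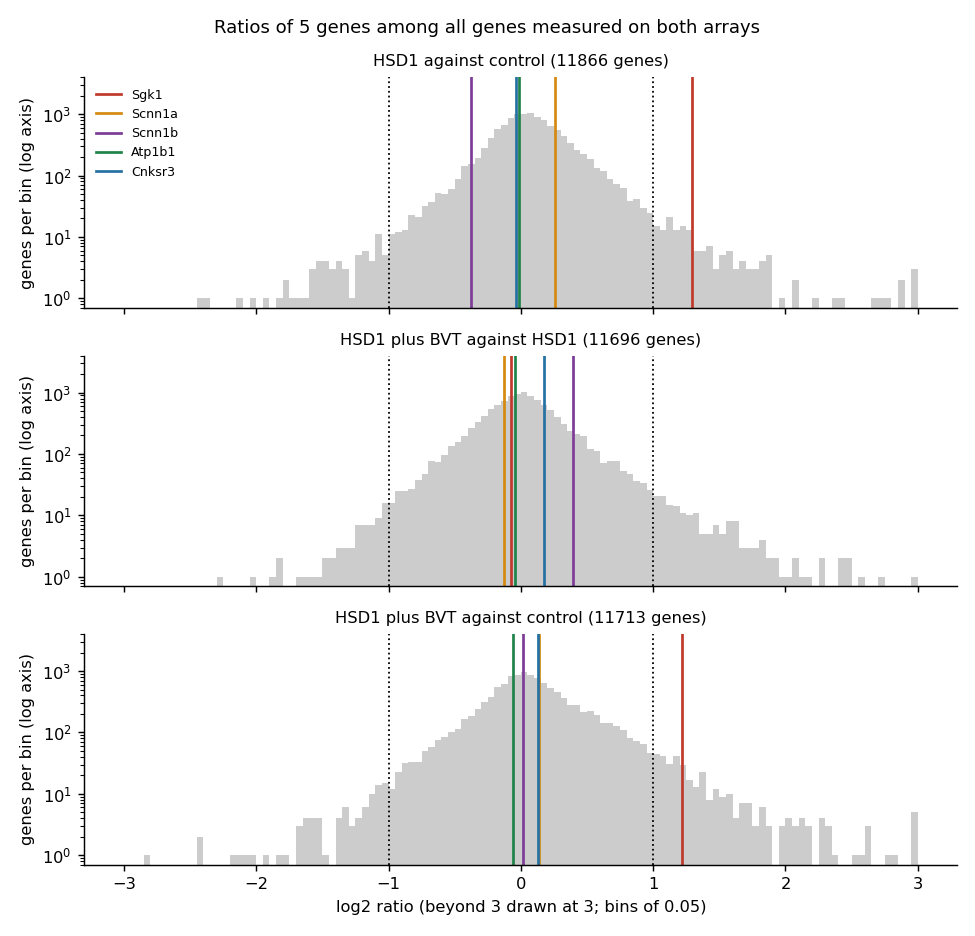
Histograms of log2 ratios over all genes well above background on both arrays (counts on a log axis), with the 5 member genes measured there as vertical lines and the 2-fold threshold dotted. Sgk1 lies at 1.29 and 1.22 in the comparisons with control and at -0.08 between the vector groups, and the other 4 genes lie between -0.37 and 0.39 in each comparison.

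Counted together, 1 of 5 measured members, Sgk1, was 2-fold higher in HSD1 than in control and none was lower, where 1.88% of all 11866 genes differed 2-fold, 1.34% higher (159) and 0.539% lower (64). The members' median log2 ratio was -0.01, beside 0.06 for all genes, and 2 of 5 were above 0, beside 60.1% of all genes. With the mean of each gene's probes, 3 of 5 were above 0 and the median was 0.26. Between HSD1 plus BVT and HSD1, none of 5 differed 2-fold, where 2.06% of 11696 genes did, 1.48% higher and 0.581% lower. The median there was -0.04 beside 0.01, and 3 of 5 were below 0, while 51.2% of all genes were above it. For HSD1 plus BVT against control it was again Sgk1 alone, 1 of 5, where 3.71% of 11713 genes differed, 2.95% higher and 0.751% lower. The median was 0.13 beside 0.05, and 4 of 5 were above 0, beside 58.9% of all genes. Those signs depended on scaling: 3 of 5 were above 0 with median centring and cyclic loess, and 2 of 5, with medians of -0.01, -0.01 and -0.06, after quantile normalization, with repaired normexp and in the authors' deposited table. Sgk1 apart, the measured members stayed under 2-fold in each comparison. The split of all called genes for HSD1 against control was 120 higher to 88 lower after quantile normalization and 113 to 90 in the authors' deposited table, and for HSD1 plus BVT against control 346 to 88 became 226 to 133 and 190 to 149.

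The genes most like Sgk1 were those with the smallest distance from it over both log2 ratios to control, on 3 arrays, among 5791 other genes with a symbol and above the median signal. Acer2, an alkaline ceramidase, was nearest, at a distance of 0.04 on the log2 scale, with ratios of 1.26 in HSD1 and 1.19 in HSD1 plus BVT. Selenop, a selenium carrier protein, followed at 0.08 with ratios of 1.24 and 1.28. Abra, an actin-binding protein of striated muscle, came next at 0.11 with ratios of 1.40 and 1.21, and Gfra2, a receptor for neurturin, lay at 0.15 with 1.23 and 1.08. Likeness over so few arrays is a description only.

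Around the members, 9 lists of genes were described: steroid signalling, the SGK kinases, NEDD4 ligases, relatives and proteases of ENaC, the sodium pump, other sodium carriers, the WNK pathway, HERG and RAF-ERK partners of CNKSR3. They hold 110 genes, of which 96 had a probe. The lists were chosen with earlier results of these data known. Their shares of called genes beside those of all genes are therefore a description and no test. For HSD1 against control, 4 of 83 measured genes were 2-fold higher and none lower, 4.82% beside the 1.88% of all genes, and the median was 0.09 beside 0.06. The 4 became 3 with median centring, 2 after quantile normalization, after cyclic loess and in the authors' deposited table, and 1 with repaired normexp. For HSD1 plus BVT against HSD1, 1 of 85 was lower and none higher by the brightest probes, 1.18% beside 2.06% of all genes. For HSD1 plus BVT against control, 2 of 82 were higher and none lower, 2.44% beside 3.71% of all genes.

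Receptors and steroid targets stand first. Nr3c2, the mineralocorticoid receptor, gave signals of 247, 176 and 273 in the order control, HSD1, HSD1 plus BVT, with a log2 ratio of -0.31 for HSD1 against control and 0.23 between the vector groups. Nr3c1, the glucocorticoid receptor, gave 1835, 1428 and 1815, with ratios of -0.18 and -0.06, and its other probe gave -0.80 for HSD1 against control. Hsd11b2, which inactivates glucocorticoid and so protects the mineralocorticoid receptor, was dim at 34.4, 28.2 and 48.7, with a ratio of -0.11 for HSD1 against control.

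Of 12 measured genes of the steroid signalling list, 2 were 2-fold higher than control in each vector group, where 1.34% of all genes were so for HSD1 and 2.95% for HSD1 plus BVT. That list, too, was chosen with earlier results of these data known, so its share is a description only. Fkbp5, a co-chaperone of steroid receptors, gave 2023, 7555 and 9941 in the order of the arrays, with log2 ratios to control of 2.08 and 2.07. Tsc22d3, which encodes GILZ, a protein that acts beside SGK1 on ENaC, gave 4921, 8784 and 13849, with ratios of 1.02 and 1.27; the first was between 0.95 and 0.99 with quantile, cyclic loess, median centring, repaired normexp and the authors' values, just under 2-fold. Zbtb16, a zinc finger repressor, had no control reading well above background and, named here after its values were seen, was at least 3.86-fold higher in HSD1 and at least 5.66-fold higher in HSD1 plus BVT. Usp2, a deubiquitinase that acts on ENaC, gave a ratio of 0.32 for HSD1 against control. The other measured genes lay between -0.31 and 0.48 in that comparison.

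Of the SGK list, none of 9 measured genes differed 2-fold between either vector group and control. Of all genes, 1.88% did so for HSD1 and 3.71% for HSD1 plus BVT. At such shares a count of none among so few genes says little. Ndrg1, a substrate often used to read SGK1 activity at the protein level, gave signals of 253, 273 and 415, with log2 ratios of 0.29 and 0.49 to control. Sgk2, a relative of Sgk1 also named after its values were seen, was well above background in HSD1 plus BVT alone. Its measured ratio to control there was 2.20-fold, and Sgk3 matched no accession. The most extreme measured ratio was that of Prr5, a subunit of the mTORC2 complex that activates SGK1: 0.66 between the vector groups. With repaired normexp it was 0.11. For HSD1 plus BVT against control the measured ratio of Prr5 was 2.34-fold. Both genes are dim, with signals of 32.3 and 36.4 in HSD1 plus BVT. In control their signals were 12.6 and 13.3, not well above background, so these ratios to control are not firm lower bounds.

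Of the NEDD4 ligases and their adaptors, none of 11 measured genes differed 2-fold from control. Of all genes, 1.88% did so for HSD1 and 3.71% for HSD1 plus BVT. Nedd4, the closest relative of Nedd4l, gave signals of 8060, 6230 and 8660, with a log2 ratio of -0.19 for HSD1 against control and 0.07 between the vector groups. The most extreme gene was Ywhab, a 14-3-3 protein, at 0.55. Of the relatives and proteases of ENaC, none of 5 measured genes differed 2-fold, beside the same shares of all genes and 2.06% between the vector groups. The most extreme was Asic2, an acid-sensing relative, with signals of 82.2, 90.9 and 186 and a log2 ratio of 0.95 for HSD1 plus BVT against control.

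From the sodium pump list, Fxyd1, phospholemman, which restrains the pump in heart, gave signals of 2788, 2630 and 3104 in the order of the arrays, with log2 ratios of 0.10 for HSD1 and -0.07 for HSD1 plus BVT against control.

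Of 17 measured sodium carriers, only Slc8a2, a sodium-calcium exchanger, was 2-fold higher in HSD1 than in control, beside 1.34% of all genes. It was dim, with signals of 18.4, 35.9 and 39.9, and its log2 ratio of 1.14 was 0.92 after quantile normalization, 0.90 after cyclic loess, 0.89 in the authors' deposited table and 0.22 with repaired normexp. Slc8a1, the exchanger of heart muscle, gave 244, 298 and 388, with a ratio of 0.46 by its brightest probe and 0.17 and -0.03 by the others. The probes of Slc12a3, named after its values were seen, differed too. Between the vector groups its brightest probe gave -0.24 and its other probe 1.30. For HSD1 plus BVT against control they gave 0.36 and 1.86.

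The WNK kinases control sodium-chloride carriers through the kinases of Stk39 and Oxsr1. All 7 measured genes of this list had ratios above 0 for HSD1 against control, beside 60.1% of all genes. None differed 2-fold, beside 1.88% of all genes. The list's median was 0.44, beside 0.06 over all genes. The median depended on the scaling: it was 0.23 after quantile normalization, where 6 of 7 were above 0, and 0.07 with repaired normexp. Wnk1 gave signals of 111, 140 and 131, with ratios of 0.51 for HSD1 against control and -0.50 between the vector groups. Wnk2, dim with a control signal of 15.9, was the most extreme at 0.89, and gave 0.63 after cyclic loess and in the authors' deposited table and 0.16 with repaired normexp.

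Kcnh2, which encodes the HERG channel that RNF207 acts on, gave signals of 3075, 2389 and 2618, with log2 ratios of -0.18 for HSD1 against control and -0.46 for HSD1 plus BVT against control. Its other probe gave -0.0026 and -0.41. None of the 5 measured genes of the HERG list differed 2-fold in any comparison. Of all genes, 1.88% did for HSD1 against control, 2.06% between the vector groups and 3.71% for HSD1 plus BVT against control. Of 6 measured relatives and partners of CNKSR3, none differed 2-fold either, and the most extreme was Mapk3, the kinase ERK1, at 0.41 for HSD1 plus BVT against control.

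**Figure D3:**
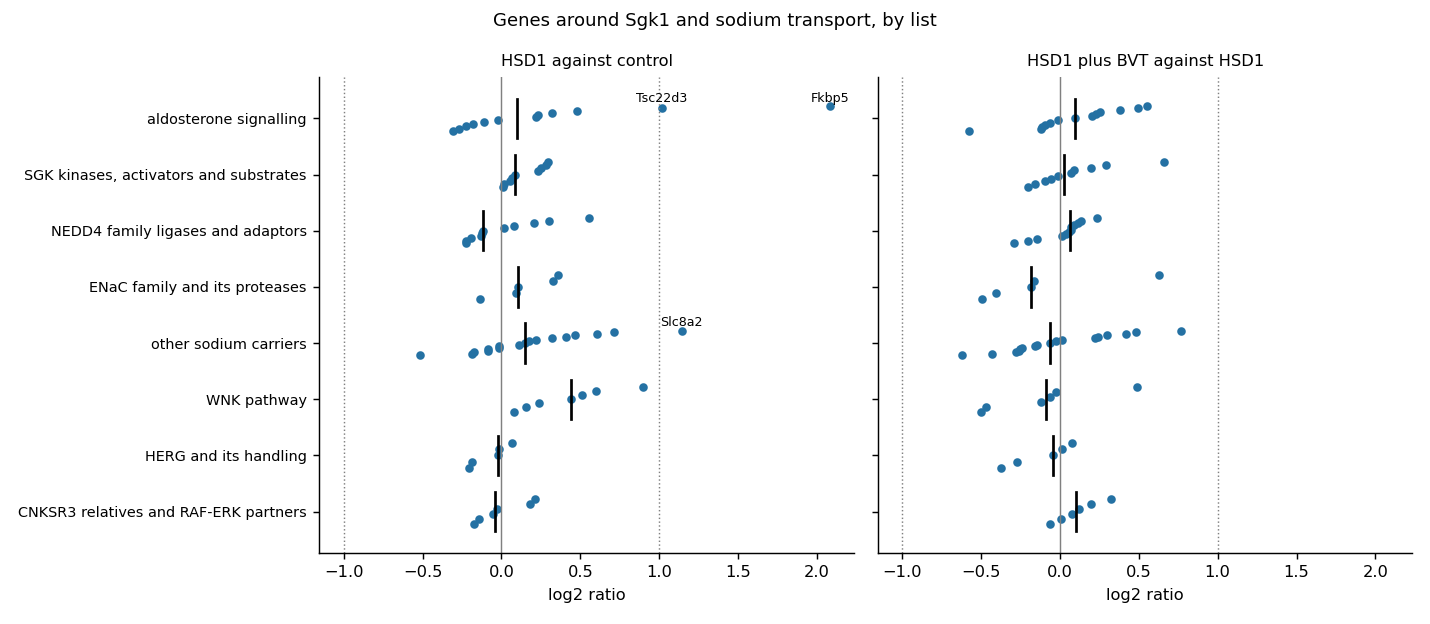
Log2 ratios of the genes of 8 lists around Sgk1 and sodium transport (the sodium pump list is not drawn), for HSD1 against control (left) and HSD1 plus BVT against HSD1 (right); each point is a gene well above background on both arrays, the bar is the list's median and dotted lines are 2-fold. Fkbp5, Slc8a2 and Tsc22d3 pass 2-fold on the left, at 2.08, 1.14 and 1.02, and no gene drawn on the right does.

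Markers of other cell types were read on the same arrays. Of 7 endothelial markers with a probe, 5 were well above background on every array, and Tie1 and Emcn were on none. All 5 were above 0 for HSD1 against control, beside 60.1% of all genes, with a median of 0.80. The median depended on the scaling: it was 0.60 after quantile normalization, 0.59 in the authors' deposited table and 0.30 with repaired normexp. The list's summed signal, in units of the array's 75th percentile, was 5.23 for control, 8.10 for HSD1 and 9.67 for HSD1 plus BVT. Kdr made up 4.82, 7.41 and 9.10 of it, and the other 6 genes summed to 0.406, 0.691 and 0.572. Between HSD1 plus BVT and HSD1 the list's median was -0.30, with 3 of 5 lower and Tek 2-fold lower. Like Sgk1, both sums were lowest in control, and their part in the Sgk1 result was not tested. This was not particular to endothelial markers. The cardiomyocyte, macrophage and leucocyte, and neuronal and Schwann sums given below were lowest in control too. Those for smooth muscle and pericyte, fibroblast and epithelial markers were lowest in HSD1 plus BVT. The sum was 1.41, 1.52 and 1.69 for macrophage and leucocyte markers, 6 or 7 of 7 well above background, with Cd163 below it in control and HSD1 plus BVT. It was 42.0, 46.9 and 34.5 for smooth muscle and pericyte markers, all 7 well above background, and 190, 191 and 183 for fibroblast markers.

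Renal and other epithelial markers, the usual setting of ENaC, were all well above background, 9 of 9, with sums of 1.60, 1.66 and 1.25. Krt18 alone made up 1.099, 1.07 and 0.605 of these sums, and the other 8 markers summed to 0.506, 0.589 and 0.642. Their part in the Sgk1 and Scnn1g values was not tested. Neuronal and Schwann cell markers gave sums of 2.73, 2.97 and 3.02, with 6 or 7 of 7 well above background. Sox10 alone made up 0.852, 1.69 and 1.76 of these, and the other 6 markers summed to 1.88, 1.28 and 1.25, highest in control. The sum for cardiomyocyte markers was 408, 456 and 450.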

How the data were processed

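RNA from 3 pools was hybridised to 3 Agilent 1-colour arrays. Per the file headers, the deposited intensity values were made with Agilent Feature Extraction 11.0.1.1, which also appears in the submitters' processing notes. They are linear signals after background subtraction. The spots' flags are other deposited values of that software. The authors also deposited log2 values for 30423 probes; how they were made is not stated in the labels or headers read here; they were log2 with a median of 6.69 on each array.

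Here, control spots and spots marked as outliers (311 to 409 an array) were left out. The log2 signal was scaled to each array's 75th percentile, and a probe's spots were averaged. Of 30366 probes, 17997 matched 1 gene in RefSeq (GRCr8) by accession; the brightest probe stood for a gene in counts over all genes. No probe's coordinates are given, since the array was annotated on another build. A probe was well above background where over 50% of its spots were. A lower bound sets the bright array against whichever is higher on the dim array, the probe's own signal or the dimmest one well above background. Bounds were computed with the 75th percentile scaling alone. No spot was saturated; 81.2% to 82.4% of spots were well above background.

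The members, lists and the rule for named genes (all members; list genes that differed 2-fold or were most extreme; 16 by name; the 4 most like each called member) were chosen with earlier results of these data known. Some genes under that rule are not reported here. The number of arrays limits the precision. The code that makes the 2-fold calls was checked on simulated data. Quantile, cyclic loess and normexp used limma 3.58.1 in R 4.3.3; the rest used Python 3.11.15.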

Additional observations from a re-analysis of the deposited data

How the results depend on the processing

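No paired analysis was possible because each group has 1 array. The count of members that differed 2-fold was the same as reported under quantile normalization, median centring, cyclic loess, the authors' deposited log2 values, repaired normexp, outlier spots kept, the mean of a gene's probes, and a 1.5-fold threshold. Without the filter on dim probes, Scnn1g entered: the count became 1 for HSD1 plus BVT against HSD1 and 2 for HSD1 plus BVT against control. Over the 6 alternatives that could change it, Sgk1 kept a log2 ratio of 1.11 to 1.29 for HSD1 against control. For HSD1 plus BVT against control it kept 1.03 to 1.22. The filter on dim probes and the mean of probes could not move Sgk1, which has 1 probe, well above background on every array. Sgk1, the only member called with that filter, did not change sign. Scnn1g, called only without it, did so for HSD1 plus BVT against HSD1, where its lowest log2 ratio was -0.25. Called genes over the whole array were not followed in this way. Normexp as planned could not be fitted on the HSD1 array, where 5 spots dimmer than their local background drew the fitted background mean to -1144; leaving them out, an alternative chosen after seeing the data, gave 27.4. Over all genes, the 2-fold counts were 159 higher and 64 lower for HSD1 against control, 173 and 68 for HSD1 plus BVT against HSD1, and 346 and 88 for HSD1 plus BVT against control. In the same order they were 62 and 33, 69 and 9, and 99 and 31 with repaired normexp, 923 and 176, 517 and 1016, and 903 and 550 without the filter on dim probes, and 672 and 274, 626 and 434, and 1183 and 421 at 1.5-fold. With cyclic loess the comparisons with control gave 114 and 92, and 267 and 125. Dim signal limits Scnn1b and Scnn1g, whose ratios for HSD1 against control ran from -0.68 to -0.06 and from -0.14 to 0.52.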
